A study of Canis lupus familiaris with 29 samples.

Results

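Genes of the pre-mRNA splicing machinery were followed in MDCK cells, an epithelial line of dog kidney, grown flat or in collagen with hepatocyte growth factor (HGF) and with inhibitors of the kinase MEK. The genes were chosen by symbol alone: SNRP, SF3A, SF3B, U2AF1, U2AF2 and their relatives, PRPF, SRSF, HNRNP, RBM, ESRP1, ESRP2, CELF and MBNL, on probe sets annotated with a single symbol. Of 103 such genes on the array, 84 had a probe set at log2 5 or more in at least 3 of 29 arrays, and each was followed through its probe set with the highest mean. They are 84 of 7052 named genes tested. By role they are 9 proteins of the small nuclear ribonucleoproteins (snRNPs), 9 SF3 and U2AF proteins, 12 PRPF proteins, 11 SR proteins, 16 heterogeneous nuclear ribonucleoproteins (hnRNPs), 23 RBM proteins and 4 of the ESRP, CELF and MBNL regulators.

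The other 19 genes stayed under the level filter. They are CELF2 to CELF6, HNRNPA0, MBNL2, MBNL3, SF3B3, SF3B4 and the RBM genes RBM4B, RBM19, RBM20, RBM24, RBM33, RBM38, RBM41, RBM46 and RBM47. The closest of them was SF3B4, whose third-highest array stood at log2 4.98. Just inside were RBM12B, with a third-highest level of 5.15, and RBM11, with 5.45.

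The line is MDCK type II, per the series title, and all arrays hold RNA of this line. Untreated control cells and cells given HGF had 4 arrays each in 2D culture on transwells and 4 each in 3D culture in collagen. HGF together with PD-98059 had 4 arrays in 2D and 3 in 3D, and HGF together with U0126 had 3 in 2D and 3 in 3D. PD-98059 and U0126 block MEK, which phosphorylates ERK, and each was added only together with HGF. The labels used here give no dose and no time. They do not say whether arrays of a group came from separate cultures, so p-values cover only the spread of these arrays, and that spread may be technical.

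Introns are removed by the spliceosome, which assembles anew on each pre-mRNA. The U1 snRNP reads the 5′ splice site, U2AF and the U2 snRNP with its SF3 complexes read the 3′ splice site and the branch point, and the U4/U6.U5 tri-snRNP and the PRPF proteins form and remodel the catalytic centre. SR proteins mostly promote and hnRNPs mostly restrain the use of nearby sites, and the epithelial proteins ESRP1 and ESRP2 set splice choices that differ between epithelial and mesenchymal cells, such as those of the FGF receptor FGFR2. HGF is known for scattering MDCK cells in flat culture and for inducing tubules from MDCK cysts in collagen.

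Values are the deposited log2 levels, so a difference of 1 is a 2-fold change. Differences were tested with limma over 16571 probe sets with Benjamini-Hochberg adjustment, and a gene counts as called below an adjusted p of 0.05. Epithelial markers EPCAM, KRT8, KRT18, CDH16, TJP1 and OCLN were at log2 5 or more in all 8 groups. The probe set of the epithelial cadherin CDH1 stayed between 2.76 and 3.14, and PAX2 and PAX8 were also under log2 5. None of 6 fibroblast and 3 endothelial markers reached log2 5 in any group. Of the leukocyte markers only CD68 did, at 5.77 in 2D cells with HGF, where the log2 of the list's summed level ran from 5.64 to 7.07 against 4.91 to 5.19 elsewhere. Its part in the 2D results was not tested. An RNA-quality index was formed from control probe sets, as the 3′ signal less the 5′ or middle signal of ACTB, GAPDH and EEF1A1. Its mean was 1.44 ± 0.10 (SD, n = 4) in 2D control, 0.838 ± 0.0476 in 2D with HGF, 1.93 ± 0.238 in 3D control and 1.68 ± 0.583 in 3D with HGF, where the arrays ran from 1.09 to 2.46. The 3D HGF arrays were also the most spread for the splicing genes, with a median SD of 0.190 against 0.0933 for the group with the lowest. In bulk RNA, fewer cells of a kind and less RNA per cell cannot be told apart.

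Culture format was the main axis along which these genes varied. The first principal component of the 84 genes held 56.8% of their variance. All 2D arrays lay between 1.79 and 3.84 on it and all 3D arrays between -5.18 and -1.21. The second component held 13.4%.

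**Figure D1:**
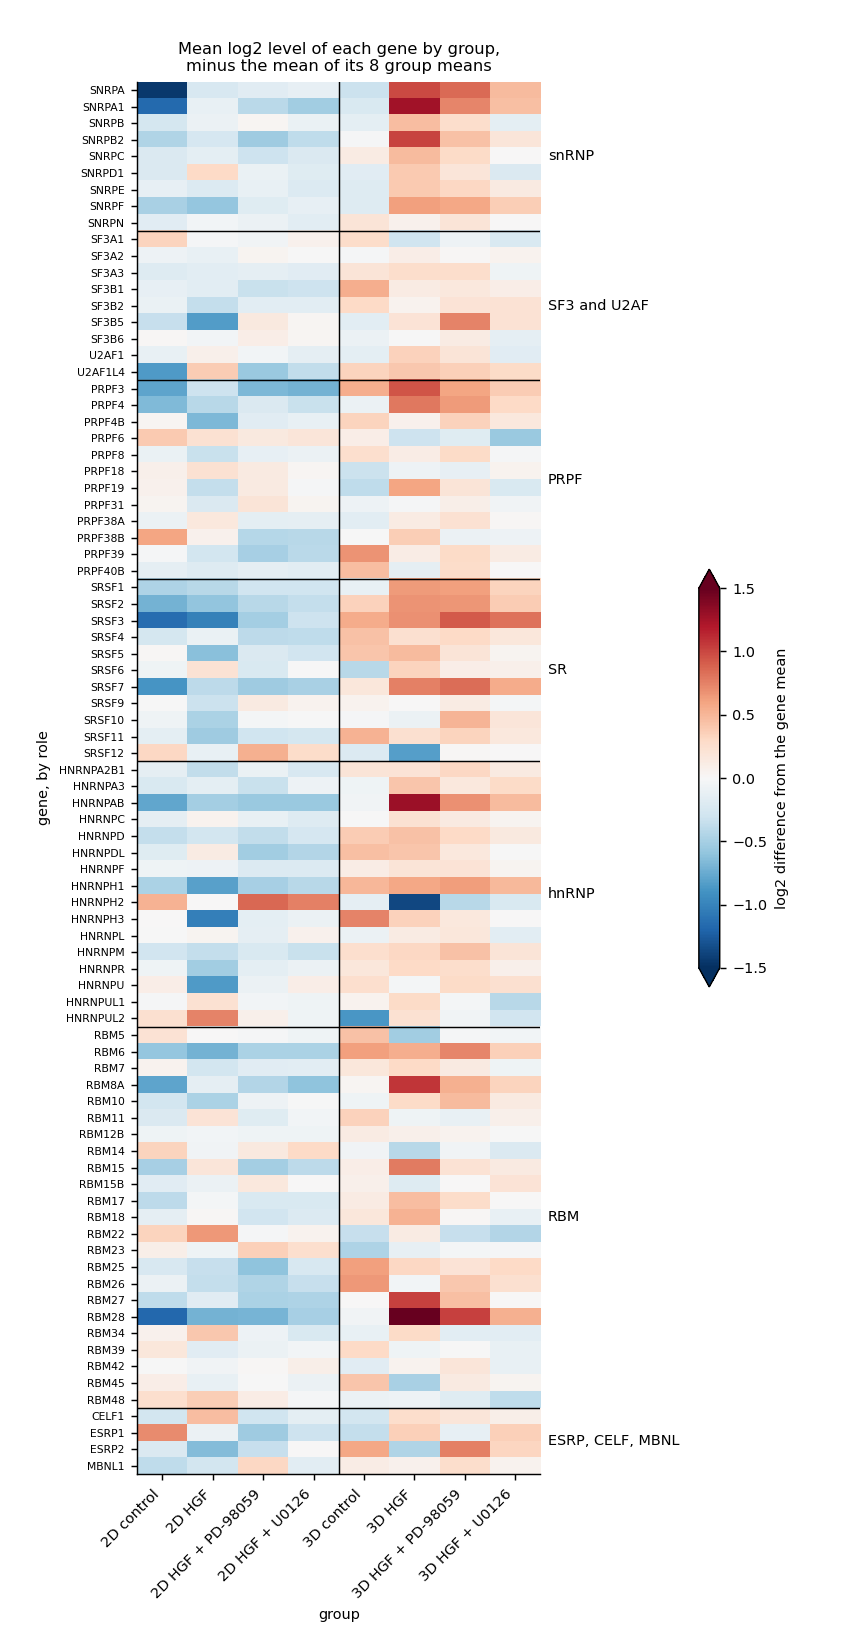
Mean log2 level of each of the 84 splicing genes in the 8 groups, after subtraction of the gene's mean over the groups, with genes ordered by role. Many rows change sign between the 2D and the 3D columns, and in the snRNP rows the 3D HGF column is the highest for most genes.

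In 3D culture HGF raised 32 of the 84 genes and lowered 19, with a median difference of 0.12. Over all tested probe sets 62.1% were called, 29.4% higher and 32.6% lower, and the median was -0.00. The share of splicing genes that rose, 38.1%, stood above that background, and the share that fell, 22.6%, below it. Leaving out 3D HGF replicates 1 and 4 together gave 35 higher and 13 lower. Median centring of each array, which moved the median of all probe sets by 0.10, gave 43 higher and 15 lower. Calls over all probe sets moved too, from 4879 higher and 5404 lower to 5875 and 4799. The RNA-quality index differed by -0.255 between these groups (exact permutation p = 0.514), and with it as a covariate 31 genes rose and 19 fell.

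In 2D culture the counts were even. HGF raised 17 genes and lowered 20, with a median of 0.00, where 55.4% of all probe sets were called, 26.3% higher and 29.2% lower. The RNA-quality index fell by 0.601 between the same groups, with no overlap (exact two-sided permutation p = 0.0286, the smallest 4 against 4 arrays allow, and 0.0714 adjusted over 10 comparisons). The ACTB part of the index went from 3.52 in 2D control to 1.77 with HGF, and the GAPDH part from 0.534 to 0.358. The EEF1A1 part went the other way, from 0.263 to 0.388, so the fall came mostly from ACTB. With the index as a covariate, 20 genes rose and 21 fell, and the calls of ESRP2 and SRSF6 were lost, as given below. Whether RNA quality caused any of these differences was not tested.

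The 2 HGF comparisons share no arrays. A rise in both cultures was called for 15 genes, which are 46.9% of those raised in 3D and 88.2% of those raised in 2D. A fall in both was called for 9 genes, 47.4% of the 3D list and 45% of the 2D list. Over all 7052 named genes, those raised in both were 54.5% of the 3D and 56.7% of the 2D list, and those lowered in both 52.7% and 63.5%. PRPF19 and SF3B5 rose in 3D and fell in 2D, and no gene did the reverse. Tested directly, the HGF effect was higher in 3D for 26 genes and lower for 9, where 48.3% of all probe sets were called, 22.0% higher and 26.3% lower.

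**Figure D2:**
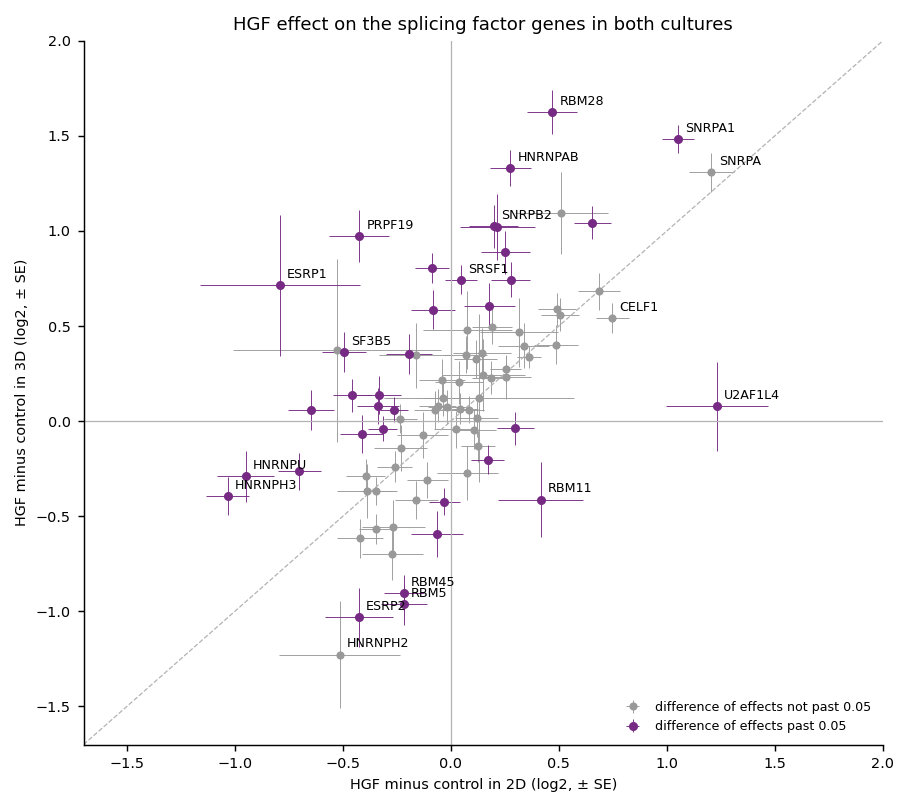
Effect of HGF on each of the 84 genes in 2D (horizontal) and in 3D (vertical), as a log2 difference with its standard error. The 35 genes in purple are those whose effects differed between cultures past an adjusted p of 0.05, and 26 of them lie above the diagonal.

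In control cells 42 genes were higher and 10 lower in 3D collagen culture than in 2D culture on transwells, with a median of 0.30. Substrate and geometry differ together between these cultures and cannot be told apart. Where collagen is said to raise or lower a gene, this whole change of format is meant. Over all probe sets the median was -0.03, and 52.3% were called, 23.6% higher and 28.7% lower. Under HGF the same comparison gave 52 higher and 11 lower, with a median of 0.39, against 64.6% called, 28.9% higher and 35.7% lower. The RNA-quality index was higher in 3D by 0.493 in control cells and by 0.839 under HGF (exact permutation p = 0.0286 for each, the smallest possible). In control cells the ACTB part was 3.52 in 2D and 3.57 in 3D, GAPDH 0.534 and 1.14, and EEF1A1 0.263 and 1.09. Under HGF these were 1.77 and 2.91, 0.358 and 0.873, and 0.388 and 1.25. With the index as a covariate, 39 genes were higher and 8 lower in control cells, and 45 and 7 under HGF.

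**Figure D3:**
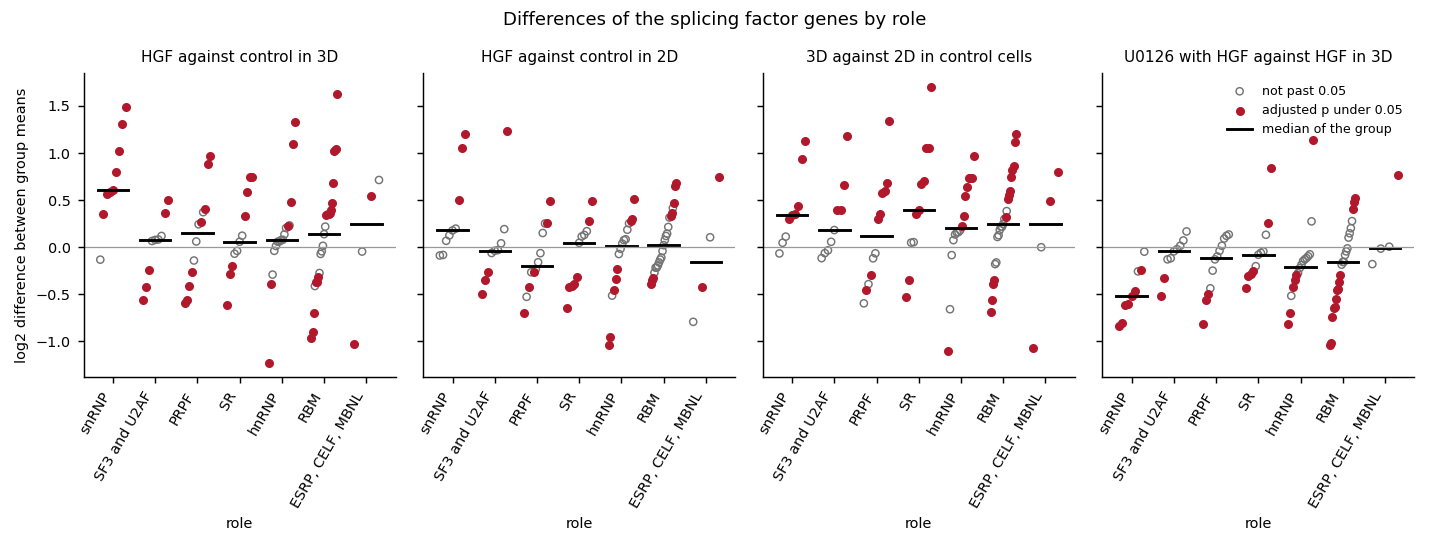
Log2 difference of every splicing gene by role for HGF in 3D, HGF in 2D, 3D against 2D in control cells, and U0126 with HGF against HGF in 3D. Red points passed an adjusted p of 0.05 and black bars are role medians, which for the snRNP proteins stand at 0.61 for HGF in 3D and -0.52 for U0126.

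Of the 9 snRNP proteins, HGF in 3D raised 8 and lowered 0 by limma, and 0 were lower at an unadjusted p of 0.05. The role's median was 0.61. The share that rose was 88.9%, where 29.4% of all probe sets rose and 32.6% fell. The 8 stayed higher and none was lower with median centring, with the RNA-quality index as a covariate and without 3D HGF replicates 1 and 4, while the mean of each gene's probe sets gave 7 higher and 1 lower, and a further quantile normalization 8 and 1. In 2D, 3 of the 9 rose and 0 fell by limma, with a median of 0.18, and 0 were lower at an unadjusted p of 0.05. The 3 are 33.3%, where 26.3% of all probe sets rose and 29.2% fell. The count of rises grew to 6, with a median of 0.32, with the RNA-quality index as a covariate, and to 5 with averaged probe sets.

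SNRPA1, the U2 snRNP protein A′, gave the clearest series of levels. Its log2 levels were 9.82, 9.89, 9.92 and 9.96 in the 3D controls and 11.30, 11.41, 11.38 and 11.43 with HGF. The groups lay far apart, and no array overlapped. The rise was 1.48 ± 0.07 (SE), or 2.8-fold (adjusted p = 4.04e-15). In 2D the levels went from 9.11, 8.91, 8.95 and 8.87 to 9.99, 10, 10.14 and 9.92, a rise of 1.05 ± 0.07. The 2D arrays with HGF thus lay at about the level of the 3D controls. The HGF effect was larger in 3D by 0.43 (adjusted p = 0.00133).

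SNRPA, the U1 snRNP protein A, rose by nearly the same amount in both cultures. It went from 8.62, 8.65, 8.59 and 8.34 to 9.75, 10.06, 9.85 and 9.76 in 3D. In 2D it went from 7.47, 7.42, 7.16 and 7.64 to 8.6, 8.66, 8.57 and 8.68. Both pairs of groups were fully separate. The rises were 1.31 ± 0.10 (adjusted p = 3.1e-11) and 1.21 ± 0.10, and their difference of 0.10 was not called.

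SNRPB2, the U2 snRNP protein B″, rose with HGF in 3D. Its levels were 9.19, 9.07, 9.43 and 9.03 in 3D controls and 10.33, 10.08, 10.21 and 10.21 with HGF. The rise of 1.03 ± 0.11 (adjusted p = 1.57e-08) stood against 0.20 in 2D, which was not called, and the effects differed by 0.83 (adjusted p = 0.000134).

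Proteins of the Sm ring, the core shared by the U1, U2, U4 and U5 snRNPs, followed with smaller rises in 3D. SNRPF rose by 0.80, SNRPB by 0.61, SNRPE by 0.58 and SNRPD1 by 0.56. The other SNRPF probe set gave 0.05, not called. The U1 protein SNRPC rose by 0.35 on the probe set used, while its other probe set fell by 0.60. In 2D SNRPD1 rose by 0.51, and the other 4 were not called on the probe sets used. Further probe sets of SNRPC and SNRPB did rise there, by 0.57 and 0.28. The difference of the SNRPB effect between cultures, 0.43 (adjusted p = 0.0364), lost its call with no filter, with the RNA-quality covariate and in 7 of the fits that left out 1 array. Those arrays were 3D control replicate 1, 3D HGF replicates 1, 2 and 3, 2D control replicate 4 and 2D HGF replicates 1 and 2. Its adjusted p ranged from 0.00289 to 0.0998 over the alternatives.

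SNRPN, the Sm protein SmN, was the exception. Its levels of 14.27, 14.38, 14.43 and 14.31 in 3D controls and 14.32, 14.29, 14.28 and 13.98 with HGF overlapped, and the difference of -0.13 ± 0.08 was not called (adjusted p = 0.159). A further SNRPN probe set gave -0.39 in 3D and 0.41 in 2D, both called. SNRPN and SNRPB are near-identical in sequence, and probes for one may read the other, which was not tested.

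Collagen culture raised 6 of the 9 snRNP genes in control cells and lowered 0, with a median of 0.35. The share raised was 66.7%, where 23.6% of all probe sets were higher and 28.7% lower. The MEK inhibitor comparisons use the same HGF arrays as the HGF comparisons, so their values are given side by side without a count of opposed genes. In 3D, U0126 with HGF lowered 7 of the 9 relative to HGF alone, with a median of -0.52, and PD-98059 lowered 2, SNRPB2 by 0.57 and SNRPA1 by 0.52. The shares lowered were 77.8% and 22.2%, against 23.8% and 15.4% of all probe sets. SNRPA1 stood at 10.88, 10.84 and 10.86 with PD-98059 and at 10.68, 10.63 and 10.42 with U0126. Both sets lay between the 3D controls and the HGF arrays. In 2D, PD-98059 lowered 3 and raised 1, and U0126 lowered 2 and raised 1. The shares lowered, 33.3% and 22.2%, stood against 24.9% and 24.3% of all probe sets. The shares raised, 11.1% each, stood against 27.6% and 25.8%.

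**Figure D4:**
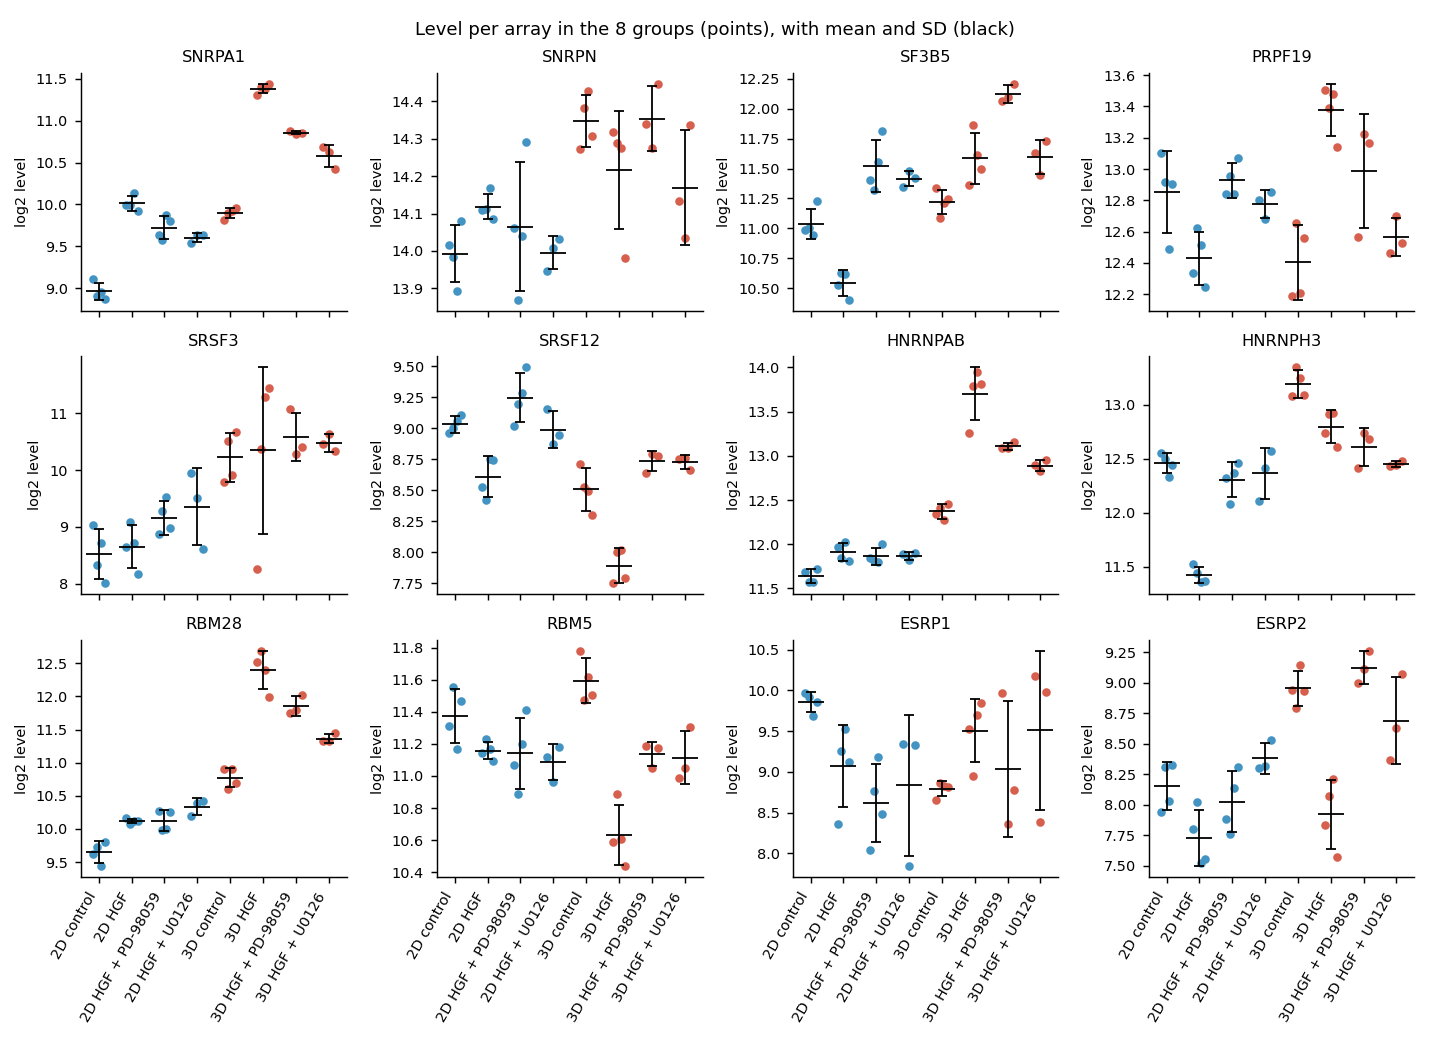
Log2 level of 12 splicing genes in every array (points) of the 8 groups, 2D in blue and 3D in red, with mean and SD in black. SNRPA1, HNRNPAB and RBM28 peak in the 3D HGF arrays, RBM5 and SRSF12 are lowest there, and HNRNPH3 is lowest in the 2D HGF arrays; axes start above 0 and differ between genes.

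SF3 and U2AF proteins moved in both directions. HGF raised 2 and lowered 3 of 9 in 3D, and raised 1 and lowered 3 in 2D. In 3D these are 22.2% and 33.3%, against 29.4% higher and 32.6% lower over all probe sets. In 2D they are 11.1% and 33.3%, against 26.3% and 29.2%. After median centring the 3D count was 4 higher and 2 lower.

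SF3B5, a small subunit of the SF3b complex, moved oppositely in the 2 cultures. In 2D its levels went from 10.98, 11, 10.94 and 11.23 down to 10.52, 10.63, 10.62 and 10.40. In 3D they went from 11.34, 11.09, 11.21 and 11.25 up to 11.36, 11.86, 11.62 and 11.50. Every HGF array lay below every control in 2D and above every control in 3D. The changes were -0.50 ± 0.10 and 0.36, and differed by 0.86 (adjusted p = 2.63e-05). A further SF3B5 probe set gave -0.35 and 0.41.

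SF3B1, the subunit that holds the branch point region, fell with HGF in 3D, from 13.91, 14.05, 14.04 and 14.02 to 13.46, 13.60, 13.70 and 13.58. The arrays did not overlap, and the fall was 0.42 ± 0.07. In 2D the difference was -0.03 and was not called, and the effects differed by -0.39 (adjusted p = 0.00236). Collagen had raised SF3B1 by 0.66 in control cells.

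U2AF1, the U2AF subunit that reads the AG at the 3′ splice site, rose by 0.50 ± 0.09 with HGF in 3D. Its relative U2AF1L4 rose in 2D, from 4.09, 5.08, 4.78 and 5.19 to 6.22, 5.93, 6.15 and 5.77. The 2D control mean lies below log2 5, where levels are dim. The rise was 1.23 ± 0.23 (adjusted p = 7.19e-05), and with 0.08 in 3D the effects differed by -1.15 (adjusted p = 0.00563). U2AF1L4 was also higher in 3D than in 2D control cells, by 1.18 ± 0.23. In 2D both inhibitors lowered it, PD-98059 by 0.94 and U0126 by 0.76. The U0126 call rested on 1 array: without 2D HGF with U0126 replicate 3 the difference was -0.50 (adjusted p = 0.142, within a range of 0.00817 to 0.142 over the alternatives).

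The PRPF proteins rose in 4 cases and fell in 4 of 12 with HGF in 3D, and rose in 2 and fell in 3 in 2D. The 3D shares, 33.3% each, were near those over all probe sets, 29.4% and 32.6%. In 2D they were 16.7% and 25%, against 26.3% and 29.2%. In collagen control cells 6 were higher and 2 lower than in 2D, where 23.6% of all probe sets were higher and 28.7% lower.

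PRPF19, the ubiquitin ligase at the core of a complex that activates the spliceosome, moved oppositely in the cultures by more than SF3B5. Its 3D levels went from 12.19, 12.66, 12.21 and 12.56 to 13.50, 13.39, 13.48 and 13.14. In 2D they went from 13.10, 12.92, 12.49 and 12.90 to 12.33, 12.62, 12.51 and 12.25. The 3D groups were separate, while the 2D groups overlapped through control replicate 3. The rise was 0.97 ± 0.14 (adjusted p = 1.03e-06), the fall in 2D was 0.42, and the effects differed by 1.40 ± 0.20 (adjusted p = 1.98e-06).

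PRPF3, a protein of the U4/U6 snRNP, was set mainly by culture. Its levels were 9.44, 9.81, 9.53 and 9.75 in 2D controls and 11.10, 10.79, 11 and 11 in 3D controls. All 3D arrays lay above all 2D arrays, by 1.34 ± 0.10. HGF added 0.40 in 3D and 0.49 in 2D.

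PRPF4B, a kinase that acts on tri-snRNP proteins, fell in 2D from 11.29, 11.34, 11.16 and 11.31 to 10.55, 10.62, 10.53 and 10.60. These groups did not overlap, and the fall was 0.70 ± 0.10, against 0.26 in 3D. Of 5 PRPF4B probe sets 2 fell in 2D, and the mean of all 5 gave -0.43. PRPF6, which bridges U5 and U4/U6 in the tri-snRNP, fell by 0.41 with HGF in 3D. It was lower in 3D than in 2D under HGF by 0.54. PRPF8, the scaffold of the catalytic centre, gave -0.14 and -0.23 with HGF, neither called. It was higher in 3D control cells by 0.35, a call lost with the RNA-quality covariate (0.12, adjusted p = 0.376), with the mean of its probe sets, and without 3D control replicate 1 (0.32), 2D control replicate 1 (0.31) or 2D control replicate 3 (0.30).

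Among the SR proteins HGF raised 4 and lowered 3 of 11 in 3D, and raised 2 and lowered 5 in 2D. The 3D shares were 36.4% and 27.3%, against 29.4% and 32.6% of all probe sets. In 2D they were 18.2% and 45.5%, against 26.3% and 29.2%. The role's median for HGF in 3D changed sign under a further quantile normalization, where it was -0.01, and with the RNA-quality covariate, where it was -0.02. In 2D it was 0.05, but -0.28 with that covariate and -0.11 with averaged probe sets. Collagen raised 7 and lowered 2 in control cells, or 63.6% and 18.2%, against 23.6% and 28.7% of all probe sets.

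SRSF1, which promotes exon inclusion and was first known as a general splicing factor, rose in 3D from 13.06, 12.99, 13.05 and 13.05 to 13.55, 13.96, 13.86 and 13.76. The 4 controls lay close together, well below the HGF arrays. The rise was 0.74 ± 0.08, against 0.05 in 2D, and the effects differed by 0.70 (adjusted p = 6.77e-06). The mean of the SRSF1 probe sets gave a smaller rise of 0.49.

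SRSF7 rose in both cultures, by 0.59 ± 0.09 in 3D and 0.49 in 2D, and a further probe set gave 1.1 in 3D. Its levels in 3D went from 13.29, 13.27, 13.33 and 13.29 to 13.69, 14.02, 14.08 and 13.75, with no overlap. Collagen had raised it by 1.05, as it did SRSF2, also by 1.05.

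SRSF6 rose by 0.74 ± 0.09 in 3D, from 9.60, 9.47, 9.58 and 9.62 to 9.98, 10.38, 10.41 and 10.45. Replicate 1 was the lowest of the HGF arrays and still lay above the controls. In 2D the rise of 0.28 lost its call with the RNA-quality covariate (0.10, adjusted p = 0.411), with the mean of its probe sets (0.18) and without 2D control replicate 3 (0.20).

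SRSF5 fell in 2D, by 0.65 ± 0.11, from 12.47, 12.62, 12.56 and 12.74 to 12.11, 11.82, 11.90 and 11.96. All HGF arrays lay below all controls. In 3D its difference was 0.06, not called, and the effects differed by 0.71 (adjusted p = 0.000401). Of 4 SRSF5 probe sets 2 fell in 2D and the mean of all 4 gave -0.34, and in 3D 2 others rose, by up to 0.91.

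SRSF12, an SR-related protein described as opposing other SR proteins, was lowest where HGF and collagen were combined. Its levels were 8.96, 9.0, 9.06 and 9.11 in 2D controls, 8.53, 8.42, 8.75 and 8.74 in 2D with HGF, 8.71, 8.52, 8.49 and 8.29 in 3D controls and 7.75, 8.0, 8.02 and 7.79 in 3D with HGF. The 2D HGF and 3D control arrays overlapped, and the 3D HGF arrays lay below all of these. HGF lowered it by 0.62 ± 0.10 in 3D (adjusted p = 1.39e-05) and by 0.42 in 2D, and collagen lowered it by 0.52. With PD-98059 it stood at 8.64, 8.79 and 8.78 in 3D and with U0126 at 8.75, 8.76 and 8.66. These arrays lay above the HGF arrays, by 0.85 ± 0.11 and 0.84 ± 0.11.

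SRSF3, the smallest SR protein, had the largest rise with collagen in control cells and the widest spread. Its levels were 9.04, 8.33, 8.71 and 8.01 in 2D controls and 9.79, 10.51, 9.92 and 10.67 in 3D controls, with no overlap. Collagen raised it by 1.70 ± 0.44 (adjusted p = 0.00213), and by 2.85 with the RNA-quality covariate. In 3D with HGF the arrays were 8.27, 10.38, 11.29 and 11.45, an SD of 1.46, the highest of any splicing gene in any group, and replicate 1 lay at the 2D level. HGF differences of 0.12 in 3D and 0.13 in 2D were not called.

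The hnRNPs rose in 4 cases and fell in 2 of 16 with HGF in 3D. These are 25% and 12.5%, against 29.4% and 32.6% of all probe sets. The counts became 9 and 2 after median centring, 9 and 4 with averaged probe sets, and 7 and 2 without 3D HGF replicates 1 and 4. In 2D 3 rose and 5 fell, where 26.3% of all probe sets rose and 29.2% fell, and the role's 2D median changed sign between scalings. In collagen control cells 8 were higher and 1 lower, where 23.6% of all probe sets were higher and 28.7% lower.

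HNRNPAB, a protein of nuclear and cytoplasmic RNA packaging, rose in 3D from 12.34, 12.41, 12.27 and 12.46 to 13.26, 13.79, 13.94 and 13.81. No array overlapped. The rise was 1.33 ± 0.09, or 2.51-fold (adjusted p = 4.84e-12), and a further probe set gave 1.79. In 2D the rise was 0.28, smaller by 1.05 ± 0.13 (adjusted p = 4.71e-07). Both inhibitors lowered it in 3D, PD-98059 by 0.59 ± 0.10 and U0126 by 0.81, to levels of 12.82 to 13.15 that stayed above the controls.

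HNRNPH1, HNRNPH2 and HNRNPH3 bind runs of G and are close relatives, so that probes may read more than one of them, which was not tested. HNRNPH3 fell in 2D from 12.55, 12.50, 12.33 and 12.44 to 11.53, 11.45, 11.36 and 11.37. The groups lay about 1 log2 unit apart, with a fall of 1.03 ± 0.10 (adjusted p = 1.38e-09), and further probe sets gave -0.94 and 0.03, with a mean of -0.65 over the 3. With PD-98059 it stood at 12.32, 12.08, 12.37 and 12.46 and with U0126 at 12.11, 12.41 and 12.57. Those arrays lay above all HGF arrays, by 0.88 ± 0.10 and 0.94 ± 0.11. In 3D the fall was 0.39, and the effects differed by 0.64 (adjusted p = 0.00047).

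HNRNPH2 fell in 3D by 1.23 ± 0.28 (adjusted p = 0.000459). The levels went from 10, 10.16, 9.76 and 10.14 to 7.36, 9.21, 9.24 and 9.34. The groups were separate, but HGF replicate 1 lay far below its own group, and without it the fall was 0.75 (adjusted p = 0.000407). The same array moved the inhibitor comparisons in 3D, from 0.94 to 0.47 for PD-98059 and from 1.14 to 0.66 for U0126. Adjusted p ranged from 0.000138 to 0.180 for PD-98059 and from 1.96e-05 to 0.104 for U0126 over the alternatives. HNRNPH1 gave 0.08 with HGF in 3D, not called, while a further probe set gave 0.89, and it fell by 0.34 in 2D. It was higher in 3D by 0.97 in control cells and by 1.39 under HGF.

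HNRNPU, a nuclear scaffold protein, fell in 2D from 13.61, 13.52, 13.53 and 13.30 to 12.53, 12.78, 12.73 and 12.12. All HGF arrays lay below the controls, by 0.95 ± 0.13. A further HNRNPU probe set gave -0.06 in 2D, and 0.83 in 3D, which was called, so its probe sets disagree. HNRNPR, a relative of HNRNPQ, fell in 2D by 0.46 ± 0.09, and its 3 probe sets ranged there from -1.90 to -0.42, with a mean of -0.92. In 3D it gave 0.14, not called, while 2 other probe sets rose, by up to 1.49. HNRNPUL2 rose in 3D by 1.09 ± 0.22 (adjusted p = 9.77e-05) on the probe set used, and gave -0.00 on another. In collagen control cells it was lower by 1.11 ± 0.22 on the first and higher by 0.46 on the other.

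HNRNPM gave 0.06 in 3D and -0.07 in 2D, and HNRNPL 0.20 and 0.04, and none of these was called, while 1 of 3 HNRNPM probe sets rose by 0.56 in 3D. HNRNPA2B1 gave 0.01 in 3D and fell by 0.23 in 2D, a call lost without 2D HGF replicate 4 (-0.19, adjusted p = 0.0557), and its 5 probe sets ran from -1.85 to 0.35 in 2D, with calls in both directions and a mean of -0.60. In 3D 1 of them fell, by 0.87. HNRNPC rose by 0.23 in 3D, a call lost in the fit on the compared arrays alone and without 3D control replicate 2 (0.21), 3D HGF replicate 2 (0.19) or 3D HGF replicate 3 (0.17), while it was 0.37 without 3D HGF replicates 1 and 4. Its adjusted p reached 0.112.

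The RBM genes, grouped by name and diverse in role, rose in 9 cases and fell in 6 of 23 with HGF in 3D, and rose in 5 and fell in 3 in 2D. The 3D shares were 39.1% and 26.1%, against 29.4% and 32.6% of all probe sets. In 2D they were 21.7% and 13.0%, against 26.3% and 29.2%.

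RBM28, a nucleolar protein of ribosome assembly that is also known from spliceosomal RNA particles, showed the largest rise. Its levels went from 10.90, 10.60, 10.90 and 10.70 in 3D controls to 12.51, 12.68, 12.40 and 12 with HGF. In 2D they went from 9.63, 9.74, 9.44 and 9.81 to 10.16, 10.08, 10.12 and 10.12. Each step was without overlap. The rise in 3D was 1.63 ± 0.11, or 3.09-fold (adjusted p = 3.51e-12), and 2.52 on a further probe set. In 2D the rise was 0.47, and the effects differed by 1.16 ± 0.16 (adjusted p = 1.84e-06). Under HGF the 3D level exceeded the 2D level by 2.28 ± 0.11, or 4.85-fold.

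RBM8A (Y14), a core protein of the exon junction complex, rose in both cultures, by 1.04 ± 0.09 in 3D (adjusted p = 6.14e-11) and 0.65 ± 0.09 in 2D. Its 3D levels went from 11.72, 11.48, 11.40 and 11.51 to 12.28, 12.73, 12.69 and 12.58, without overlap. RBM15, which guides the m6A writer complex to RNA, rose by 0.68 ± 0.10 in 3D and 0.69 ± 0.10 in 2D. Each of its rises was between non-overlapping groups, from 10.94 to 11.20 against 11.50 to 11.89 in 3D and from 10.29 to 10.63 against 10.96 to 11.38 in 2D. RBM27 rose by 1.02 ± 0.17 in 3D, with further probe sets at 0.65 and 0.27, not called, and gave 0.22 in 2D, not called, and the effects differed by 0.80 (adjusted p = 0.00882). RBM10 rose by 0.35 in 3D.

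RBM5, a tumour-suppressor candidate that steers the alternative splicing of apoptosis genes, fell in 3D from 11.78, 11.47, 11.62 and 11.50 to 10.59, 10.89, 10.61 and 10.44. The arrays were fully separate. The fall was 0.96 ± 0.11 (adjusted p = 1.9e-08), and further probe sets gave -1.40 and -0.77. In 2D the difference was -0.22, not called, though the further probe sets fell, by 0.32 and 0.92. The effects differed by -0.75 (adjusted p = 0.000237), and by -1.08 and 0.15 on the further probe sets, the last not called. With PD-98059 it stood at 11.18, 11.05 and 11.17 and with U0126 at 10.99, 11.05 and 11.30. These arrays lay between the HGF arrays and the controls, above HGF by 0.51 and 0.48.

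RBM6, the neighbour of RBM5 in the RefSeq gene order and its relative by sequence, showed no called change there. Its levels of 12.04, 11.68, 12.01 and 11.72 in 3D controls and 12.05, 11.92, 11.73 and 11.47 with HGF overlapped, and the difference was -0.07 ± 0.12. Collagen raised RBM6 by 1.20 ± 0.12, while RBM5 gave 0.22 there, not called, and another RBM5 probe set fell by 1.32.

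RBM45 fell in 3D from 12.44, 12.44, 12.52 and 12.29 to 11.67, 11.54, 11.66 and 11.20, by 0.90 ± 0.09 (adjusted p = 5.08e-09), and gave -0.22 in 2D, not called. A further probe set gave -0.91 in 3D. RBM26, a relative of RBM27 in nuclear RNA decay, fell by 0.70 ± 0.14, while its other probe set gave -0.17, not called, and the mean of both -0.43. RBM39 fell by 0.37 in 3D and by 0.35 in 2D, but the mean of its probe sets gave -0.13 and -0.10, neither called. RBM11 gave 0.42 in 2D and -0.41 in 3D at levels of 4.52 to 5.87 in these groups, and the effects differed by -0.83 (adjusted p = 0.0154).

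Collagen lowered 4 RBM genes in control cells, or 17.4%, against 28.7% of all probe sets. RBM22, a protein of the activated spliceosome, was lower by 0.68 ± 0.18 and RBM23 by 0.56 ± 0.17, and both were near the limit of detection. The mean of RBM23 was under log2 5 in 3D control. That of RBM22 was under it only in 3D with HGF and U0126, a group outside this comparison. The RBM23 call was lost with the RNA-quality covariate (-0.29). RBM14 was lower by 0.39 ± 0.14, a call lost without 3D control replicate 2 (-0.35) or 4 (-0.37) or 2D control replicate 2 (-0.37) or 4 (-0.34). The 4th was RBM48.

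The ESRP proteins define the epithelial splicing program. ESRP2 fell with HGF in 3D from 8.94, 8.80, 9.15 and 8.93 to 7.84, 8.08, 8.21 and 7.57. All HGF arrays lay below all controls. The fall was 1.03 ± 0.16 (adjusted p = 2.7e-06). With PD-98059 the levels were 9.0, 9.12 and 9.27 and with U0126 8.37, 8.63 and 9.07. Both sets lay above the HGF arrays, PD-98059 by 1.20 ± 0.17 and U0126 by 0.77 ± 0.17.

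In 2D, ESRP2 went from 7.94, 8.31, 8.03 and 8.33 to 7.80, 8.02, 7.53 and 7.56. These groups overlapped, and the fall of 0.43 (adjusted p = 0.0234) lost its call with no filter, with the RNA-quality covariate (-0.28) and without 2D control replicate 2 (-0.37), 2D control replicate 4 (-0.37), 2D HGF replicate 3 (-0.36) or 2D HGF replicate 4 (-0.37). Its adjusted p ranged from 0.00323 to 0.221. The difference of effects, -0.61 (adjusted p = 0.0259), was lost without 3D control replicate 3 (-0.54), 3D HGF replicate 4 (-0.49), 2D control replicate 1 (-0.54) or 2D HGF replicate 2 (-0.51), and with array weights or without 3D HGF replicates 1 and 4 (-0.39 each), with a range of 0.0124 to 0.172.

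ESRP1 had tight controls and scattered treated arrays. The 2D controls were 9.97, 9.92, 9.69 and 9.86 and the 3D controls 8.66, 8.87, 8.83 and 8.82. Collagen thus lowered it, by 1.07 ± 0.37 (adjusted p = 0.0179), with no overlap. With HGF the levels were 8.36, 9.26, 9.53 and 9.12 in 2D and 9.53, 8.95, 9.70 and 9.84 in 3D. HGF arrays lay below the controls in 2D and above them in 3D, but neither difference, -0.79 and 0.71, was called. A further ESRP1 probe set fell in 2D, by 1.16. The effects differed by 1.51 ± 0.52 (adjusted p = 0.0199). That call was lost with no filter, without 2D HGF replicate 1 (1.27, adjusted p = 0.0533) and without 3D HGF replicates 1 and 4 (1.33), over a range of 0.00067 to 0.0719. With the inhibitors ESRP1 ran from 7.84 to 9.34 in 2D and from 8.37 to 10.17 in 3D.

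CELF1, which binds GU-rich sequences, rose in both cultures. Its 2D levels went from 9.48, 9.47, 9.48 and 9.41 to 10.22, 10.21, 10.20 and 10.19. Both groups were tight and lay well apart. The rise was 0.75 ± 0.08 in 2D and 0.54 ± 0.08 in 3D. With PD-98059 in 2D it stood at 9.44, 9.29, 9.43 and 9.60 and with U0126 at 9.60, 9.60 and 9.59. Those arrays lay near the controls, below HGF by 0.76 and 0.61. MBNL1, which binds YGCY motifs and opposes CELF1 at many exons, gave -0.05 in 3D and 0.11 in 2D, neither called, while other probe sets gave 1.38 in 3D and -0.55 in 2D, both called. Its rise in collagen of 0.49 was -0.15 on the mean of its probe sets, which disagree.

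With a MEK inhibitor added to HGF, fewer genes were called in 3D than for HGF itself. PD-98059 raised 11 and lowered 15, where 42.0% of all probe sets were called, 26.6% higher and 15.4% lower. U0126 raised 7 and lowered 31, against 49.3%, 25.4% higher and 23.8% lower, with a median of -0.16 over the splicing genes. These counts rest on the spread pooled over all 8 groups: fitted on the compared arrays alone, they were 12 and 25 in all. For PD-98059 the split depends on scaling, with 7 higher and 28 lower after median centring, which moved the median of all probe sets by -0.13, and 10 and 21 after a further quantile normalization. Calls over all probe sets moved too, from 4408 higher and 2557 lower to 3485 and 3954 after centring. After the quantile normalization they were 3935 and 3589. The largest rises with either compound were those of ESRP2, HNRNPH2 and SRSF12. The largest falls between non-overlapping arrays were HNRNPAB, SNRPB2 and RBM15 (by 0.56) with PD-98059, and RBM28 by 1.04 ± 0.12, RBM27 by 1.01 ± 0.19 and SNRPB2 by 0.83 with U0126. SRSF6 fell by 0.25 with U0126 (adjusted p = 0.0391), a call lost with the replicate number as a block (-0.21, adjusted p = 0.0690) and without 3D HGF replicates 2 (-0.23), 3 (-0.22) or 4 (-0.20) or 3D HGF with U0126 replicates 1 (-0.22) or 3 (-0.21).

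In 2D PD-98059 raised 20 and lowered 20, where 52.4% were called, 27.6% higher and 24.9% lower, and U0126 raised 16 and lowered 16, where 50.1% were called, 25.8% higher and 24.3% lower. A further quantile normalization turned the U0126 split to 26 higher and 14 lower. Calls over all probe sets went from 4269 higher and 4026 lower to 4571 and 4165. SF3B5 rose by 0.98 ± 0.10 with PD-98059 and 0.87 ± 0.11 with U0126, HNRNPH3 by 0.88 and 0.94. HNRNPU rose by 0.96 ± 0.14 with U0126 and HNRNPH2 by 0.85 with PD-98059, the latter lost without 2D HGF replicate 4 (0.70, adjusted p = 0.0538). HNRNPU rose with PD-98059 too, by 0.76, while its other probe set gave -0.14 there, not called. With U0126 the mean of the HNRNPU probe sets gave a smaller rise of 0.45. Falls were led by U2AF1L4, CELF1 and RBM15 (by 0.70) with PD-98059, and by HNRNPUL2 (by 0.81), U2AF1L4 and RBM34 (by 0.63) with U0126. Against HGF alone the RNA-quality index was higher with PD-98059 by 0.527 (exact permutation p = 0.0286, the smallest possible) and with U0126 by 0.477 (exact permutation p = 0.0571, the smallest 3 against 4 arrays allow).

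The compounds were then set against each other directly, each with HGF, in 84 genes per culture. Since no dose or time is stated, whether the compounds were matched is unknown. In 3D, 10 genes were lower with U0126 and 0 higher by limma, and at an unadjusted p of 0.05 these were 30 and 0. Over all probe sets 11.8% were called, 2.99% higher and 8.82% lower, and the median of the splicing genes was -0.18 against -0.06 over all probe sets. The 10 are 11.9% of the 84, near that lower share and near the 9.90% lower over 1 probe set for each of 7052 genes.

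The strongest of the 10 was SF3B5. It stood at 12.07, 12.10 and 12.21 with PD-98059 and at 11.63, 11.45 and 11.73 with U0126, with no overlap. The difference was -0.52 ± 0.12 (95% interval -0.77 to -0.28, adjusted p = 0.00438), and its call held in all alternatives, with adjusted p from 7.39e-05 to 0.0398. RBM28 differed by -0.49 ± 0.13 (adjusted p = 0.0152), a call lost without 3D HGF with PD-98059 replicate 3 (-0.41) or U0126 replicates 1 (-0.47) or 2 (-0.47), over a range of 0.000268 to 0.110. The others were SNRPD1 (-0.40), SNRPA (-0.38), PRPF6 (-0.37), U2AF1 (-0.37), SF3A3 (-0.33), SNRPA1 (-0.28), SRSF1 (-0.28) and RBM17 (-0.27), so that 3 of the 10 are snRNP proteins. The calls of SRSF1 and U2AF1 were lost under several alternatives, up to an adjusted p of 0.780 and 0.135. For SRSF1 these included each fit without a PD-98059 replicate or U0126 replicate 1 or 2 (-0.29 to -0.25), and for U2AF1 those without PD-98059 replicate 2 (-0.37) or 3 (-0.32) or U0126 replicate 1 (-0.37) or 2 (-0.31).

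The number itself varied from 2 to 12 when 1 array was left out. It was 5 without 3D HGF with PD-98059 replicate 2, 2 without its replicate 3, 4 without 3D HGF with U0126 replicate 1 and 2 without its replicate 2.

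For 81 of the 84 genes in each culture, called or not, the gene's own 95% interval lay within a 2-fold difference. These intervals are not adjusted over the 84 genes and rest on the spread pooled over all 8 groups. ESRP1, PRPF38B and SRSF3 were the exceptions in both. In 3D the interval for SRSF12 was -0.26 to 0.24, for RBM5 -0.28 to 0.23 and for RBM45 -0.32 to 0.13. For ESRP2 it was -0.81 to -0.06, not called after adjustment (adjusted p = 0.123).

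In 2D MBNL1 alone was called between the compounds by limma, lower with U0126 by 0.46 ± 0.11 (adjusted p = 0.0280), and 0 genes were higher. At an unadjusted p of 0.05, 3 were higher and 3 lower, and 1.62% of all probe sets were called, 0.845% higher and 0.778% lower. The MBNL1 call was lost with no filter, on the compared arrays alone, on the mean of its probe sets and in 5 of the fits that left out 1 array. Those were 2D HGF with PD-98059 replicates 3 (-0.45) and 4 (-0.37) and with U0126 replicates 1 (-0.40), 2 (-0.49) and 3 (-0.50), with an adjusted p from 0.00311 to 0.193 over the alternatives.

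**Figure D5:**
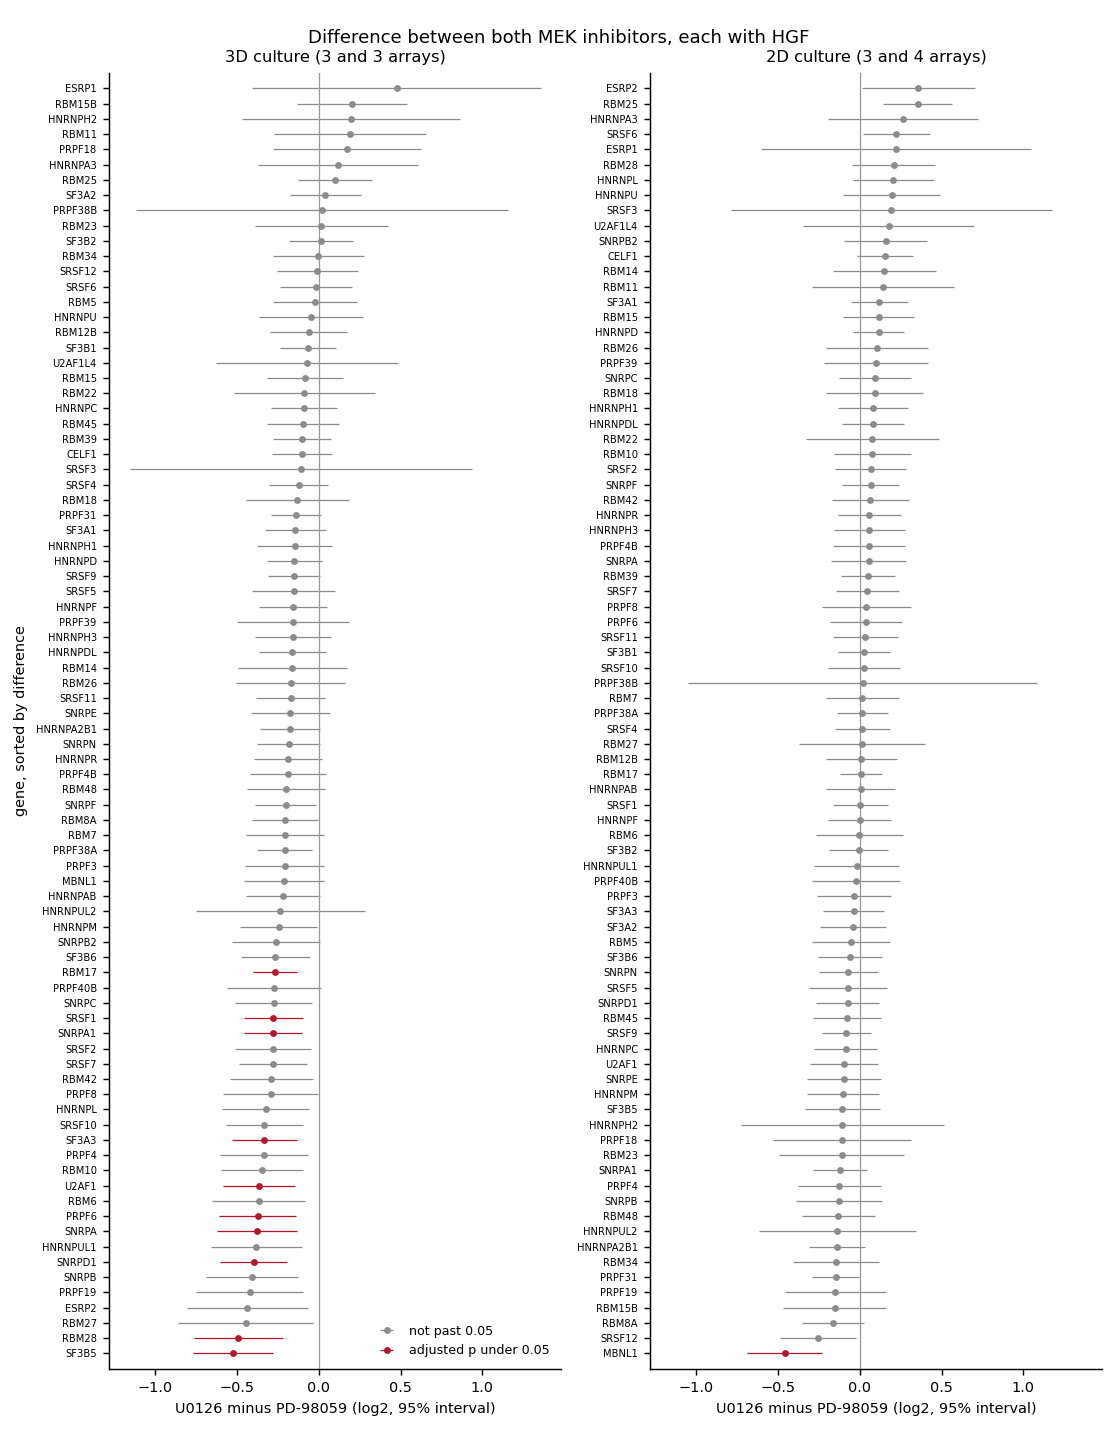
Difference between U0126 and PD-98059, each with HGF, for the 84 genes in 3D (left) and 2D (right), as log2 with its 95% interval. In 3D the 10 called genes, in red, are all lower with U0126, and in 2D only MBNL1 is called.

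Other genes of the splicing pathway, which the symbols above do not cover, were taken from 6 lists of 82 genes, 71 of them tested. With HGF in 3D 34 rose and 10 fell, with a median of 0.31. Of all tested probe sets, 29.4% were called higher there and 32.6% lower. The list of U1, U5 and tri-snRNP proteins also held SART3 and, from the minor spliceosome, SNRNP25, SNRNP35 and SNRNP48. Of its 13 genes 11 rose and 0 fell. The LSm proteins LSM1 to LSM8 rose in 5 and fell in 0 of 8. RNA helicases gave 3 higher and 1 lower of 8, the PRPF19 complex and its partners 6 and 2 of 11, SR protein kinases and related proteins 3 and 2 of 12, and other regulators 6 and 5 of 19. In 2D 19 of the 71 rose and 17 fell, where 26.3% of all probe sets were higher and 29.2% lower. Collagen raised 35 and lowered 7 in control cells, where 23.6% of all probe sets were higher and 28.7% lower. Relative to HGF alone in 3D, U0126 raised 4 and lowered 26 and PD-98059 raised 4 and lowered 13. The shares over all probe sets were 25.4% higher and 23.8% lower for U0126, and 26.6% and 15.4% for PD-98059.

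Several probe sets were tested for 56 of the 84 genes. Calls in both directions for 1 gene occurred in 5 genes for HGF in 3D (RBM14, SF3B2, SRSF4, SNRPC and SRSF10) and in 1 for HGF in 2D (HNRNPA2B1). For 3D against 2D in control cells they occurred in 5 (HNRNPR, SRSF5, MBNL1, HNRNPUL2 and SF3B2). Probe sets can read different transcript ends or isoforms, and which transcripts each reads was not tested.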

How the data were processed

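RNA of MDCK cells was hybridised to 29 Affymetrix canine arrays. The values are log2 levels per probe set as the authors deposited them. The submitters' processing notes list GCRMA, MAS5, Partek 6.6 and Affymetrix Expression Console 1.1, with no role or order. No normalization was added. Of 43035 rows, 111 are controls, and 16571 of the other 42924 probe sets reached log2 5 in at least 3 arrays and were tested. Gene symbols come from the platform annotation, and the identifiers of 75 of 84 genes were found in the RefSeq table with the same symbol, while those of 9 were not in it. A further 16 probe sets with several symbols were left out. No genome was used, so no positions or sequences are given.

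Differences were fitted with limma 3.58.1 in R 4.3.3 (lmFit on 8 group means over 29 arrays, eBayes with a variance trend). Tests were two-sided and adjusted by Benjamini-Hochberg over 16571 probe sets within each of 11 comparisons. The script was tested on simulated data. The RNA-quality index was compared with exact permutation tests (Python 3.11.15, scipy 1.17.1) over 10 comparisons of 2 groups.

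Genes are named where they passed without overlap of the compared arrays (for the difference of effects, where they passed) and were among the largest changes in each direction: 6 for HGF in each culture and for control cells in 3D against 2D, 4 for the difference of effects and 3D against 2D with HGF, 3 for each inhibitor and 2 between inhibitors. A fixed set of 29 was added, of which 9 were not tested (HNRNPA1, HNRNPK, U2AF2, RBM3, RBM38, RBM47, CELF2, MBNL2 and MBNL3). This names 50 genes. Other genes, such as the remaining snRNP proteins and those called between compounds, were named after their values were seen. Members, lists and names were chosen with earlier results of these data known.

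Alternatives were no filter and a filter at log2 6, eBayes without trend, the compared arrays alone, a further quantile normalization, median centring, array weights, a replicate block, the RNA-quality index as a covariate, averaged probe sets per gene, each array left out, and 3D HGF replicates 1 and 4 left out together. Same-numbered arrays were checked for shared deviations and were not treated as paired.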

Additional observations from a re-analysis of the deposited data

Results flagged for a closer look

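Over the 50 named genes, 250 groups of 4 arrays were examined for an array far from the other 3, and 9 were found, where chance flags about 1 in 20 groups. In 3D with HGF, replicate 1 was low for HNRNPH2 (7.36 against 9.21 to 9.34), HNRNPL (10.93 against 11.19 to 11.23) and SRSF6 (9.98 against 10.38 to 10.45), and replicate 4 was low for SNRPN (13.98 against 14.28 to 14.32). In 3D controls CELF1 was low in replicate 2 (9.37), PRPF4B high in replicate 3 (11.69) and SNRPB low in replicate 1 (12.84 against 12.90). In 2D controls CELF1 was low in replicate 4 (9.41) and HNRNPC high in replicate 1 (13.37).

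For 25 named genes the HGF effect differed between 3D and 2D by limma's test of the difference. It was higher in 3D for ESRP1 (1.51), PRPF19 (1.40), RBM28 (1.16), HNRNPAB (1.05), SF3B5 (0.86), SNRPB2 (0.83), RBM27 (0.80), SRSF5 (0.71), SRSF1 (0.70), HNRNPU (0.66), HNRNPH3 (0.64), HNRNPR (0.59), RBM10 (0.55), SRSF6 (0.47), PRPF4B (0.44), SNRPA1 (0.43), SNRPB (0.43), HNRNPH1 (0.42) and RBM8A (0.39). It was lower in 3D for U2AF1L4 (-1.15), RBM11 (-0.83), RBM5 (-0.75), RBM45 (-0.69), ESRP2 (-0.61) and SF3B1 (-0.39).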

How the results depend on the processing

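In each comparison single results were tallied for the genes named for it by the rule and the 20 tested genes of the fixed set, 287 in all. Of these 139 were called, and 106 kept their call and direction in all alternatives that could be run. The rule took the largest changes, and calls given for other genes or comparisons are not in this count. Fitted on the compared arrays alone, PD-98059 with HGF against HGF in 3D gave 12 calls in place of 26, and U0126 with HGF against HGF in 3D gave 25 in place of 38. For U0126 against PD-98059 with HGF in 3D the 10 calls became 4 with no filter, 4 on the compared arrays alone, 3 after quantile normalization, 41 with array weights, 16 with the RNA-quality index as a covariate and 2 to 12 with 1 array left out. For U0126 against PD-98059 with HGF in 2D the 1 call became 0 with no filter, on the compared arrays alone and on probe set means, 2 after quantile normalization, with array weights and with the index, and 0 to 1 with 1 array left out. The direction reversed with averaged probe sets for HNRNPA2B1 (HGF in 3D, -0.28), MBNL1 (HGF in 3D 0.40, the difference of effects 0.68, and 3D against 2D in control cells -0.15), RBM5 (3D against 2D in control cells, -0.36) and RBM39 (PD-98059 in 2D, -0.23), with the index for SRSF3 (HGF in 2D, -1.27), and after quantile normalization for SF3B1 (U0126 in 3D, 0.15). Of these reversals, only that of MBNL1 in control cells was of a result called in the main fit. The others were called only in the alternative named. The causes were not tested. With 1 array left out, calls ran from 46 to 55 for HGF in 3D, 33 to 38 for HGF in 2D, 32 to 38 for the difference of effects, 50 to 53 for control cells in 3D against 2D, 58 to 63 under HGF, 18 to 25 and 34 to 40 for PD-98059 and U0126 in 3D, and 33 to 39 and 29 to 32 in 2D.

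The replicate number was not used to pair the arrays. Of 35 same-numbered pairs 13 had deviations correlated over 0.1 (range -0.296 to 0.409), and 12 arrays correlated best with their own number. Such correlations cannot show whether same-numbered arrays were prepared together. With the number as a block, calls were 52 for HGF in 3D, 37 for HGF in 2D and 9 between the compounds in 3D, and the 1 named call that changed was SRSF6 with U0126 in 3D. The signal over background limits RBM11, RBM12B, RBM22, RBM23 and U2AF1L4, whose mean was under log2 5 in at least 1 group.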
